A study of Mus musculus with 19 samples.

Results

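Chromosomes 7, 11 and 19 were profiled by array comparative genomic hybridization (aCGH) in 10 liver tumors, of which 4 were hepatocellular adenomas (HCA) and 6 were hepatocellular carcinomas (HCC), and in the 9 unaffected livers of the same mice. All non-control probes of the array that are placed on Chr7, Chr11 or Chr19 of the mouse genome build NCBI37 (mm9) were taken, apart from 3 stretches left out by the same rule, at 26.68 to 27.06 Mb of Chr7, 62 to 77 Mb of Chr11 and 32.3 to 33.4 Mb of Chr19. This gave 30438 of the 219501 autosomal probes kept, or 66 of 500 bins of 5 Mb, with 30 bins on Chr7, 23 on Chr11 and 13 on Chr19. The 3 chromosomes were chosen by the tumor values themselves, as those that differed little between tumors and liver, so each value of a tumor below is a description and carries no test.

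The 19 samples came from 9 mice that were Mad2 f/f (the Mad2l1 gene) and carried Albumin-Cre. Their background was mixed, from C57BL/6 and 129 mice, and the control DNA came from livers of the same background, with no engineered allele named for it. Each mouse gave 1 unaffected liver. The HCAs came from 4 females aged 12 to 16.9 months, of which mice 2430 and 6199 were Trp53 f/f and mice 5884 and 5901 were Trp53 f/+. The HCCs came from 5 mice aged 12.3 to 16.2 months with Trp53 R246S (written p53ser246+ in the genotype and p53ser249 in the strain name), namely females 6240 (tumors 4 and 2) and 6602 and males 6487, 6565 and 6642. HCA and HCC shared 0 Trp53 genotypes, so tumor type and genotype cannot be told apart. Albumin-Cre acts in hepatocytes, whereas DNA was taken from whole tissue that also holds other cells, and a change carried by a part of the cells cannot be told apart from a smaller change carried by all of them.

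Mad2l1 encodes the spindle checkpoint protein Mad2, which holds back anaphase until every kinetochore is attached to the spindle. Hepatocytes without it can missegregate whole chromosomes, and hepatocytes are often polyploid even in healthy liver. In aCGH, DNA from a sample and from a control, labeled in different colours, binds the same probes, and the log2 ratio of their signals (the aCGH ratio) follows the average copy number relative to the rest of the genome. Mouse autosomes are telocentric, so the first bins of each chromosome lie next to its centromere. Chr7 carries the cell cycle gene Ccnd1, the mitotic kinase gene Plk1 and the hepatocyte transcription factor gene Cebpa. Chr11 carries the growth factor receptor gene Egfr, the chromosomal passenger gene Birc5 and the fatty acid synthase gene Fasn. Chr19 carries the spindle motor gene Kif11, the chromosomal passenger gene Incenp and most Cyp2c genes of the liver. Lists of genes of mitosis, cancer and liver function chosen for these chromosomes place 32 on Chr7, 39 on Chr11 and 42 on Chr19 in RefSeq. Their DNA was analysed here as part of the chromosome and not gene by gene.

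Samples carried Cy5, and the control liver, of the opposite sex, carried Cy3. Deposited log10 ratios were converted to log2, set to 0 at the median of each array's autosomal probes and averaged over the probes of a chromosome or bin. The bins of the 3 chromosomes held 155 to 749 probes, and the median standard error of a bin mean was 0.0096 to 0.020 per array, which covers probe noise within an array only. As a check of scale and sex, the X ratio was 0.89 to 1.04 in the 6 female livers and −1.02 to −0.90 in the 3 male livers, near the size of 1 that a copy number of 2 against 1 gives. In the tumors it was 0.73 to 1.07 in 6 females and −1.06 to −1.04 in 3 males, whereas HCC 6240 tumor 2, from a female, had 0.32. This value lies outside the range of either sex, and whether the array holds the sample on its label was not tested. Liver 6240 stood apart from the other livers on Chr19, and the values that it moves most are given with and without it.

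The 3 chromosomes were not the least changed in every order. The mean size of the difference between a tumor and the mean of the livers was 0.054 for Chr11, 0.056 for Chr19 and 0.074 for Chr7, over 10 tumors. Chr4 differed less than all of them, with 0.048, and Chr2 (0.064) and Chr5 (0.070) differed less than Chr7. Chr17 followed with 0.088, and the other autosomes ran from 0.099 for Chr8 to 0.26 for Chr15. Chr11, Chr19 and Chr7 therefore held ranks 2, 3 and 6 of 19 from the least changed. Unaffected livers, each set against the other 8, differed by a mean of 0.017 for Chr11, 0.044 for Chr19 and 0.021 for Chr7. Chr19 and Chr4 were the autosomes where the tumor value lay closest above that of the livers. For Chr19 this rested largely on liver 6240, as the SD over the livers was 0.063 with it and 0.020 without it.

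**Figure D1:**
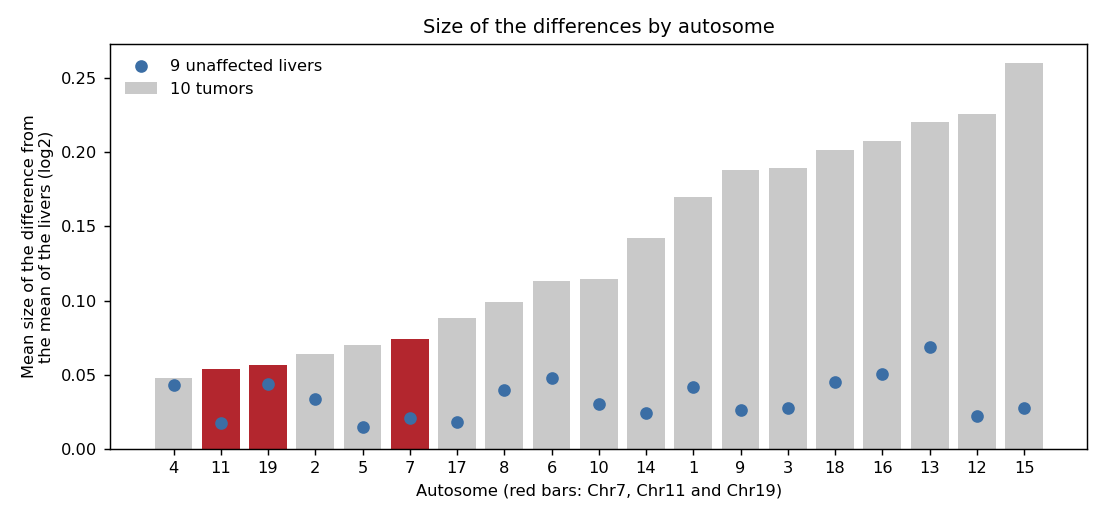
Mean size of the difference from the mean of the livers (log2) for each autosome, ordered by the tumors. Bars give the mean over 10 tumors (red for Chr7, Chr11 and Chr19, with 0.074, 0.054 and 0.056), and points the mean over 9 unaffected livers. Chr4 stands at the low end with 0.048 and Chr15 at the high end with 0.26. The point for Chr19 includes liver 6240, which lay 0.18 below the other livers.

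The 3 chromosomes shared a high gene density, which the rule did not use. RefSeq lists 2030 protein-coding genes on Chr7, 1609 on Chr11 and 705 on Chr19. Divided by the span of the array's probes these are 13.6, 13.5 and 12.1 genes per Mb, ranks 1, 2 and 3 of the 19 autosomes, and Chr17 came next with 11.5. Chr4 and Chr5, which changed as little, had 8.70 and 8.49 (ranks 7 and 8), below the 9.93 of the more changed Chr9 (rank 6). The most changed autosomes, Chr15 and Chr12, had 7.73 and 5.75. Over the 19 autosomes, the mean size of the tumor differences was lower where genes were denser (Spearman's rho = −0.76, Pearson's r = −0.69). This relation was noticed after the values were seen, and its points share the same 10 tumors and the same centring. The points also include Chr7, Chr11 and Chr19, which the tumor values had chosen, so the relation is a description and carries no test. Chr7 owes part of its count to large families of odorant and pheromone receptor genes.

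Chr7 was higher in some tumors and lower in others. Its aCGH ratio was 0.21 in HCC 6487, 0.15 in HCC 6240 tumor 4 and 0.10 in HCA 5884. The other HCCs had −0.041 (6240 tumor 2), −0.035 (6642), −0.0042 (6565) and 0.024 (6602), and the other HCAs −0.056 (5901), −0.049 (2430) and −0.034 (6199). Livers ran from −0.021 (liver 6240) through a median of 0.026 to 0.059 (liver 6642). Thus 3 tumors lay above every liver, 5 lay below and only HCC 6565 and HCC 6602 lay among them. Without liver 6240 the livers started at 0.0084 (liver 2430), and HCC 6565 lay below them too. The mean ± SD was −0.0093 ± 0.074 over the 4 HCAs, 0.049 ± 0.10 over the 6 HCCs and 0.024 ± 0.024 over the 9 livers. The differences of HCA (−0.033) and of HCC (0.026) from liver were smaller than the spread between tumors of either kind. With 1 array left out in turn, that of HCA ran from −0.070 (without HCA 5884) to −0.017 (without HCA 5901) and that of HCC from −0.0056 (without HCC 6487) to 0.044 (without HCC 6240 tumor 2). The SD over the 10 tumors, 0.093, was 3.80 times that over the livers, or 4.92 times without liver 6240. With all 9 livers this ratio ran from 1.18 on Chr19 to 5.12 on Chr12 over the 19 autosomes. Chr11 had 3.29, between Chr10 (3.01) and Chr18 (3.36). Without liver 6240 Chr11 had 3.11, and only Chr3, Chr4 and Chr13 had lower ratios. By this measure Chr7 was not among the least changed autosomes, and the place of Chr11 depended on liver 6240.

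In HCC 6487, Chr7 exceeded the mean of the livers by 0.18, which is 13.4% more DNA. Here and below, amounts of DNA are relative to the autosomal median of the array. Over 13 alternatives this Chr7 difference of HCC 6487 ran from 0.017 to 0.26. All 30 bins lay above the livers, by 0.093 to 0.25, and 23 of them by more than 0.15. The first 5 bins, up to 25 Mb, averaged 0.11 and the 25 bins after them 0.19. In this tumor Chr7 held rank 4 of 19 from the most changed, whereas over all tumors it held rank 6 from the least changed. Against the liver of the same mouse the difference was 0.15. HCC 6240 tumor 4 had a flat profile, with all 30 bins between 0.088 and 0.17 above the mean of the livers, a mean of 0.12 (8.84% more DNA) and 3 bins past 0.15. The other HCC of this mouse, tumor 2, had 0 of 30 bins above the livers, with a mean of −0.065. HCA 5884 had 30 of 30 bins above the livers, by a mean of 0.078, with 0 past 0.15.

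The lower Chr7 values lay closer to the livers than those of HCC 6487 and HCC 6240 tumor 4. HCA 5901 lay 0.080 below the mean of the livers, HCA 2430 lay 0.072 below and HCA 6199 lay 0.057 below. In HCA 2430 the bin at 35 to 40 Mb lay lowest, at −0.21 from the mean of the livers, and the same bin was the lowest on Chr7 in the liver of this mouse, at −0.14. HCC 6642 had 3 bins more than 0.15 below the livers, all within the first 7 bins, and none beyond them. The bins of this array varied most within the chromosomes, with an SD of 0.057, followed by liver 6240 with 0.049, against 0.023 to 0.044 on the other 17 arrays.

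**Figure D2:**
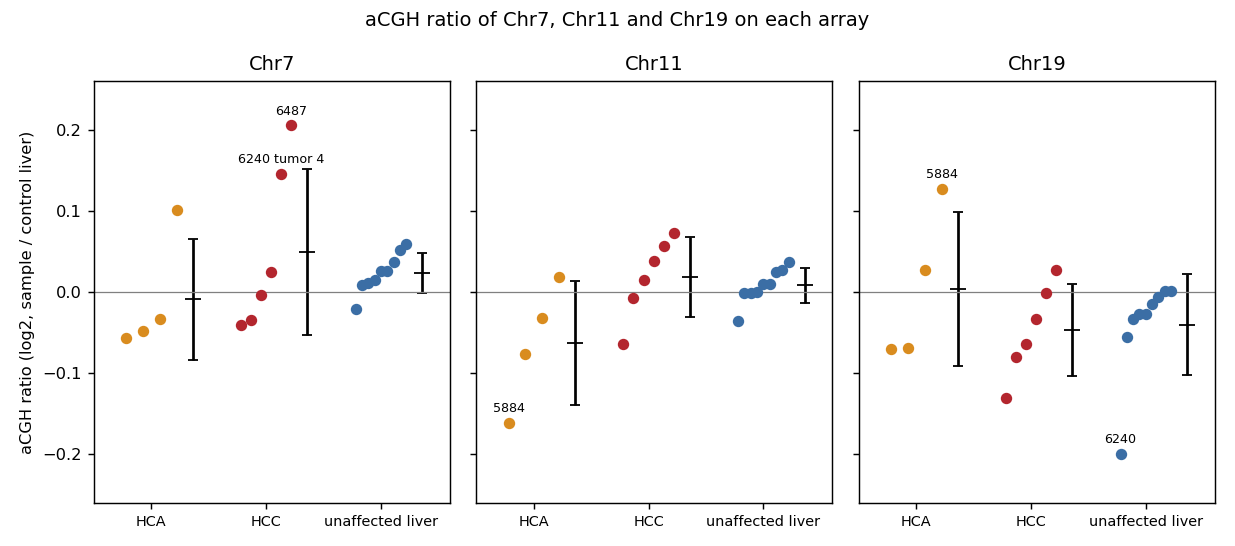
aCGH ratio (log2, sample over control liver) of Chr7, Chr11 and Chr19 on each of 19 arrays, by group. Points are arrays, black marks give the mean and SD of the group, and arrays over 0.1 from the mean of the livers carry their mouse number. On Chr7, HCC 6487 (0.21) and HCC 6240 tumor 4 (0.15) lie above the livers, on Chr11 HCA 5884 (−0.16) lies below them, and on Chr19 liver 6240 (−0.20) is the lowest array.

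Chr11 was lower in HCA 5884, and the other 9 tumors lay within 0.085 of the mean of the livers. The HCAs had ratios of −0.16 (5884), −0.077 (5901), −0.032 (2430) and 0.018 (6199). The HCCs had −0.064 (6602), −0.0078 (6565), 0.015 (6240 tumor 4), 0.038 (6642), 0.056 (6240 tumor 2) and 0.072 (6487). Livers ran from −0.036 (liver 6487) through a median of 0.0097 to 0.037 (liver 6199). Of the tumors, 3 HCCs lay above every liver, whereas 2 HCAs and 1 HCC lay below. The mean ± SD was −0.063 ± 0.076 over the 4 HCAs, 0.018 ± 0.049 over the 6 HCCs and 0.0080 ± 0.022 over the 9 livers. The difference of HCA from liver was −0.071, and that of HCC was 0.010. With 1 array left out in turn, HCA ran from −0.098 (without HCA 6199) to −0.038 (without HCA 5884) and HCC from −0.00044 (without HCC 6487) to 0.027 (without HCC 6602).

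In HCA 5884 the whole of Chr11 was low. All 23 bins lay below the mean of the livers, by 0.093 to 0.23, and 18 by more than 0.15. The mean difference was −0.17, equal to 11.1% less DNA, and −0.16 against its own liver. HCC 6487 and HCC 6240 tumor 2 had 23 of 23 bins above the livers with means of 0.064 and 0.048, and 0 bins past 0.15. Against its own liver, HCC 6487 was 0.11 higher, since liver 6487 was the lowest liver on Chr11.

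In HCC 6602 the first part of Chr11 was lower than the rest. The first 18 bins, up to 100 Mb, averaged −0.10 from the mean of the livers. All 18 lay below it, 1 of them by more than 0.15, and the 5 bins after the 18 averaged 0.019. This step of 0.12 was the largest of any tumor on the 3 chromosomes. Those that followed were 0.093 on Chr7 in HCC 6642, 0.085 on Chr7 in HCC 6487, and 0.083 in size on Chr11 in liver 6240. Over single probes and against the liver of the same mouse, the best boundary lay between a probe that ends at base 101718912 of Chr11 and one that starts at base 101732737. The 8255 probes before it averaged −0.12 and the 2402 after it 0.020. With the mean of the livers as the reference, or with 3 other corrections of background and dye, the boundary lay at 101.66 to 101.73 Mb, and the step was 0.076 to 0.15. In windows of 1 Mb, 85 of 85 before the boundary and 6 of 20 after it lay below the own liver. The last window before it was the lowest, at −0.27 ± 0.027 (SE over 170 probes). The boundary was placed by the largest contrast in these same values, so the windows beside it are not independent of that choice.

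**Figure D3:**
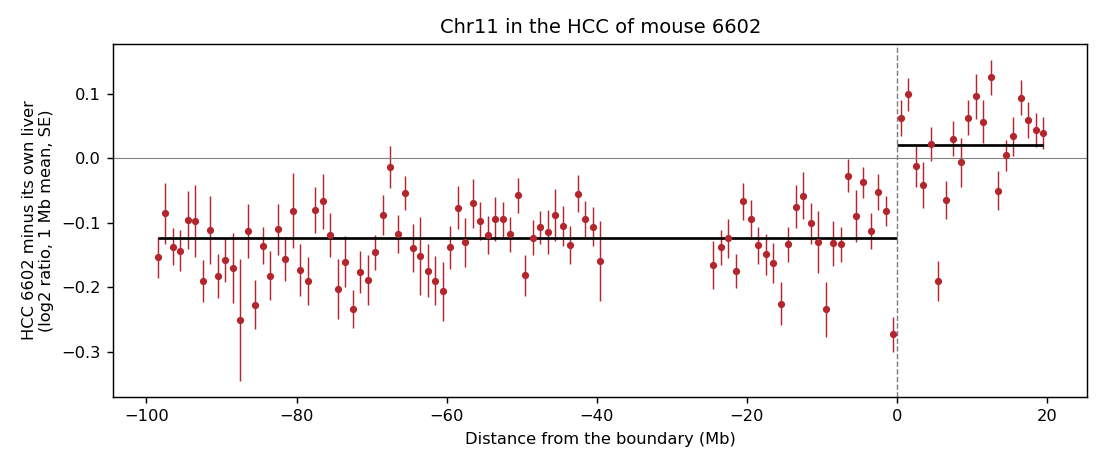
Difference between the HCC of mouse 6602 and the unaffected liver of the same mouse along Chr11, as means over 1 Mb with SE over probes (log2), plotted by distance from the boundary in Mb. Black lines give the means before (−0.12) and after (0.020) the boundary, and the gap without points is the stretch left out.

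Chr19 was higher in HCA 5884 and lower in HCC 6487. The HCAs had ratios of 0.13 (5884), 0.027 (5901), −0.070 (2430) and −0.071 (6199). The HCCs had −0.13 (6487), −0.080 (6240 tumor 4), −0.064 (6240 tumor 2), −0.034 (6565), −0.00089 (6602) and 0.028 (6642). Among the livers, liver 6240 stood apart at −0.20, and the other 8 ran from −0.056 to 0.0016. With all 9 livers, 3 tumors lay above the livers and 0 below. Without liver 6240, 3 lay above and 5 below. The mean ± SD was 0.0036 ± 0.094 over the 4 HCAs, −0.047 ± 0.057 over the 6 HCCs and −0.040 ± 0.063 over the 9 livers, with differences of 0.044 for HCA and −0.0066 for HCC. Without liver 6240 these were 0.024 and −0.027. With 1 tumor left out, HCA ran from 0.0027 (without HCA 5884) to 0.069 (without HCA 6199), and HCC reached 0.010 without HCC 6487. The spread over the 10 tumors was 1.18 times that over 9 livers, and 3.75 times that over the 8 livers without liver 6240.

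HCA 5884 lay 0.17 above the mean of the livers on Chr19, or 12.3% more DNA, with 13 of 13 bins above it and 8 past 0.15. Its last 3 bins averaged 0.24 and the 10 before them 0.16. HCC 6487 lay 0.090 below, with 0 of 13 bins above the livers and 1 past 0.15. Liver 6240 lay 0.18 below the other livers, with 13 of 13 bins below them and 8 past 0.15. Its size exceeded that of every tumor on Chr19, the largest of which was 0.17. Chr19 was not the most changed autosome of liver 6240, where it held rank 2 of 19. The tumors of the same mouse lay below the other 8 livers, and 0.12 (tumor 4) and 0.14 (tumor 2) above liver 6240.

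The background correction set the scale of these differences. With spot signals left uncorrected, HCC 6487 differed by 0.12 on Chr7, and HCA 5884 by −0.068 on Chr11 and 0.087 on Chr19. The X ratio of the female livers was then 0.48 to 0.66. With the normexp correction the same differences were 0.017, −0.015 and 0.051, and the X ratio of the female livers was 0.013 to 0.47. No sign changed in these 3 values.

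The bins told the same arrays apart. Of 264 values in the HCAs, 28 (10.6%) departed from the mean of the livers by more than 0.15, against 45.1% of bins over all autosomes in these tumors. In the HCCs 32 of 396 (8.08%) departed, against 31.1% over all autosomes, and in the livers 9 of 594 (1.52%), against 3.16%. HCA 5884 held 26 of the 28 and HCC 6487 held 24 of the 32. HCC 6642 had 4, HCC 6240 tumor 4 had 3, HCA 2430 had 2 and HCC 6602 had 1. HCA 5901, HCA 6199, HCC 6240 tumor 2 and HCC 6565 had 0, as did 8 of the 9 livers, and liver 6240 held all 9 of the livers' departing bins. Against the liver of the same mouse the share was 13.9% in HCC (37.4% over all autosomes). HCC 6240 tumor 4 then had 20 departing bins and tumor 2 had 4, both set against liver 6240. Without HCA 5884 the share was 1.01% in HCA, against 46.1% over all autosomes, without HCC 6487 it was 2.42% in HCC, against 31.8%, and without liver 6240 it was 0% in the livers, against 0.475%. The largest departure of a bin was 0.28 in a tumor and 0.26 in a liver. HCC 6487 was the tumor whose share was higher on the 3 chromosomes (36.4%) than on the other 16 (26.7%), and in the other 9 tumors it was lower.

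**Figure D4:**
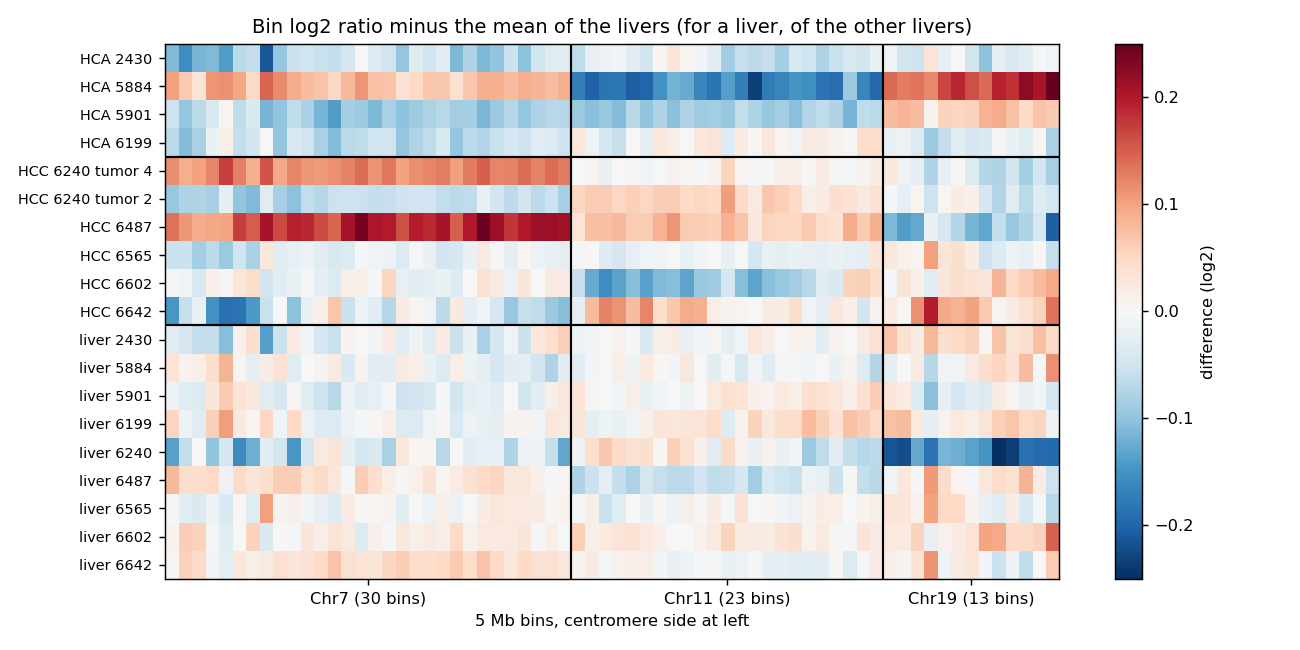
Bin ratio minus the mean of the livers (log2, colour) in 5 Mb bins of Chr7, Chr11 and Chr19, centromere side at left, for 4 HCAs, 6 HCCs and 9 unaffected livers. HCC 6487 and HCC 6240 tumor 4 are red along Chr7, HCA 5884 is blue along Chr11 and red along Chr19, and liver 6240 is blue along Chr19.

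**Figure D5:**
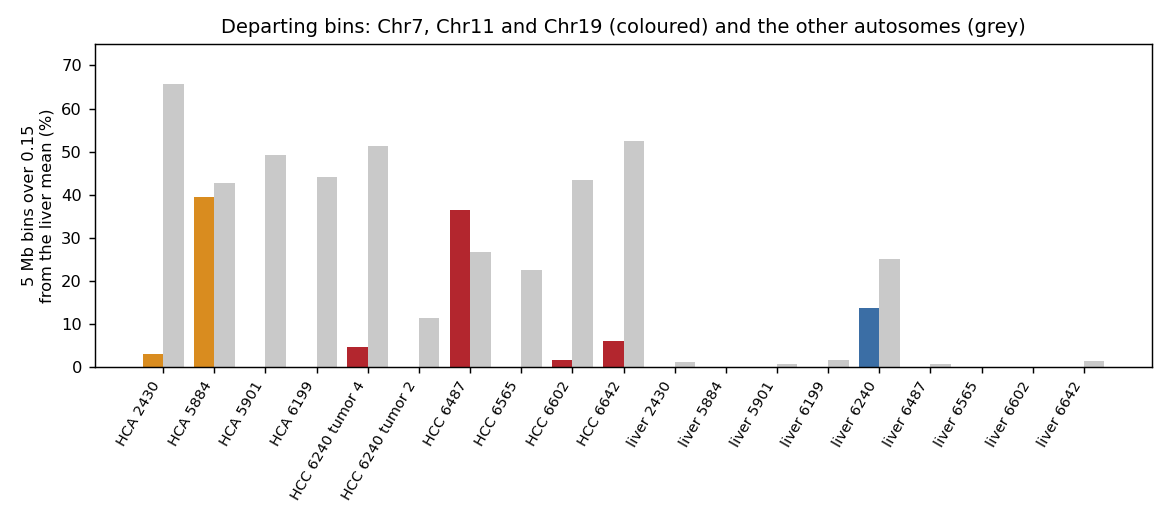
Share of 5 Mb bins (percent) that lie over 0.15 from the mean of the livers on each array, coloured for Chr7, Chr11 and Chr19 and grey for the other 16 autosomes. HCA 5884 (39.4%) and HCC 6487 (36.4%) hold the tallest coloured bars, and liver 6240 (13.6%) holds the one among livers.

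Whole-chromosome ratios outside the range of the 9 livers were counted for every autosome. In HCA, 8 of 12 values of the 3 chromosomes lay outside, against 71.1% over all autosomes, and in HCC 9 of 18, against 58.8%. These shares were near those of all autosomes. Without liver 6240, 10 of 12 lay outside in HCA, against 88.2% over all autosomes, and 13 of 18 in HCC, against 67.5%.

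Scan days held unequal groups, with 2 HCAs and 3 livers on the first, 2 HCAs, 1 HCC and 2 livers on the second, and 5 HCCs and 4 livers on the third. Within the first and second days, HCA differed from liver by 0.015 and −0.084 on Chr7, −0.11 and −0.030 on Chr11, and 0.056 and −0.011 on Chr19. Within the second day and within the third, HCC differed by 0.17 and −0.0073 on Chr7, 0.072 and −0.0018 on Chr11, and −0.12 and 0.035 on Chr19. The signs therefore differed between days in 5 of the 6 comparisons, with HCA 5884 on the first day and HCC 6487 alone on the second.

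Unaffected livers with Trp53 R246S (n = 5) were compared with those with floxed Trp53 (n = 4), the contrast that used no tumor. On Chr7 the means were 0.031 ± 0.032 (SD) and 0.015 ± 0.0080 (SD), a difference of 0.016 (exact permutation test, two-sided, p = 0.397, adjusted p = 0.792). On Chr11 the difference was −0.018 (exact permutation test, p = 0.278, adjusted p = 0.754), and on Chr19 it was −0.033 (exact permutation test, p = 0.683, adjusted p = 0.885), or 0.0031 without liver 6240. By this test 0 of 19 autosomes passed 0.05 after Benjamini-Hochberg adjustment (0%), and 3 had an unadjusted p under 0.05, none of them Chr7, Chr11 or Chr19. The smallest p that 9 livers allow is 0.00794. Chr3 reached it in the exact permutation test and had an adjusted p of 0.151. After adjustment this test could therefore not call 1 autosome on its own. In limma over the 500 autosomal bins, 0 of the 66 bins passed, against 0.2% over all autosomes, with a lowest adjusted p of 0.365 and 2 of the 66 bins, against 59 of all 500, at an unadjusted p under 0.05. The R246S livers include all 3 males and all 4 livers scanned on the third day, and on the second day, with 1 liver of either kind, the differences were 0.025, −0.074 and −0.0089.

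Fine structure along the chromosomes was alike between a tumor and its own liver in most pairs, but not in all. After the mean of each bin over all arrays and the mean of each chromosome were removed, the median correlation between the profile of a tumor and that of its own liver was 0.65 over 66 bins (10 pairs, −0.037 to 0.78). The lowest of these pairs were those of HCC 6240 tumor 4 (−0.037), HCC 6487 (0.17) and HCC 6602 (0.17). For 160 pairs from different mice the median was −0.10, with a range of −0.87 to 0.75. Removing the mean over all arrays by itself pulls correlations between arrays below 0, so this median is not a neutral baseline. The profiles share probes, and 9 of the 10 pairs were scanned on the same day. HCC 6642 and liver 6240, from different mice, had 0.75, the highest value between mice. The bin at 15 to 20 Mb of Chr19, with the mean of the chromosome kept, lay 0.083 to 0.11 above the other livers in livers 2430, 6487, 6565 and 6642, 0.070 to 0.10 below in livers 5884 and 5901, and 0.18 below in liver 6240. HCC 6565 and HCC 6642 were high in this bin like their own livers, at 0.10 and 0.20 above the mean of the livers. HCC 6487 lay at −0.019 in this bin and HCA 5884 at 0.12, but Chr19 as a whole lay at −0.090 and 0.17 in these tumors. Within Chr19 the bin was the highest in HCC 6487, as in its own liver. In HCA 5884 it was the lowest, as in its own liver.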

How the data were processed

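DNA of 19 samples was hybridized to 19 Agilent mouse CGH arrays of 243301 spots. The authors extracted the signals with Feature Extraction 10.5.1.1, which subtracted the background and normalized the dyes linearly. The deposited files hold the log10 ratio (Cy5 over Cy3), the spot and background intensities and quality flags as scores of other kinds, on NCBI37 (mm9). A second deposited table, over all samples, repeats these log10 ratios to within 5e-10, and 0 of its columns belonged to no sample.

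Spots marked as outliers, 0.069% to 0.29% of those on autosomes, were not used, and 98.4% to 99.9% were well above background. Spots of a probe were averaged, log2 ratios were centred on the autosomal median, and means were taken over chromosomes and over 5 Mb bins of at least 20 probes. A bin departed when it lay more than 0.15 from the mean of the livers (for a liver, of the other 8). A step was the best division of a bin profile into parts of at least 3 bins. The number of arrays limits the precision. The lists, chromosomes and tests were chosen with earlier results of these data known. Livers were compared by an exact permutation test (scipy 1.17.1) and bins by limma 3.58.1, both with Benjamini-Hochberg adjustment, after the steps had been tested on simulated data. The samples of a group are separate mice, except the HCCs of mouse 6240. Tumor and liver of a mouse are paired because they come from the same animal. Genes were to be named from a gene column of the files, and singled out by their difference from the livers, with probe sequences for the extreme bins. Gene positions and sequences on NCBI37 were not used here, so no gene has a value. RefSeq (GRCm38.p6) served for the chromosome of a gene and for gene counts. Alternatives are given in the closing section. These include 5 that were added after the data were seen, namely leaving out arrays that stand apart (in 2 ways), values within scan days, the step over single probes, and the step under the other settings.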

Additional observations from a re-analysis of the deposited data

Results flagged for a closer look

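Of 21 sets of values examined for a sample far from the rest of its group, 7 held one. Chance gives about 1 in 20 for independent sets, but these share arrays, and the tumor values had chosen the chromosomes, so the count is a description. The Chr7 ratio of HCA 5884 (0.10) lay far above the next HCA (−0.034). The same tumor held 26 departing bins against 2 in the next HCA, and a Chr19 step of 0.080 against 0.019. HCC 6487 held 24 departing bins against 4 in the next HCC. Liver 6240 had a Chr19 ratio of −0.20 against −0.056 in the next liver, 9 departing bins against 0, and a Chr11 step of 0.083 in size against 0.043. The causes were not tested.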

How the results depend on the processing

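Each tumor was also paired with its own liver (the replicate block). On Chr7, Chr11 and Chr19 the differences were then −0.024, −0.081 and 0.026 in HCA and 0.027, 0.018 and 0.032 in HCC. The share of departing bins was 7.95% in HCA and 13.9% in HCC (over all autosomes 44.5% and 37.4%). Liver 6240 enters these HCC values with both tumors of its mouse. On Chr19 these tumors lay 0.12 and 0.14 above it. The other HCCs differed from their own livers by −0.12 (6487), −0.0062 (6565), −0.0020 (6602) and 0.061 (6642). The paired HCC values were not computed without liver 6240. The share in HCA was 24.2%, 2.65% and 0% at distances of 0.1, 0.2 and 0.3 (over all autosomes 64.3%, 30.8% and 13.4%). In HCC it was 22.5%, 3.28% and 0% (42.7%, 21.3% and 9.97%), and in livers 4.55%, 0.673% and 0% (8.16%, 0.889% and 0.0222%). Without background correction the shares were 0% in HCA and 0.505% in HCC (15.4% and 16.9%). With normexp they were 0% in HCA, 2.53% in HCC and 3.37% in livers (24.1%, 17.8% and 9.29%), and HCA minus liver on Chr11 was 0.014. Without centring the shares were 13.9% in HCC and 4.04% in livers (37.2% and 3.22%). In livers the share was 2.86% with loess (3.49%), 2.36% with centring on all probes (2.87%) and with medians over probes (2.42%), and 2.45% in bins of 2 Mb (3.59%). In female mice it was 3.03% in HCC and 2.27% in livers (29.7% and 4.8%). With 1 array left out in turn, the shares were 1.01% to 14.1% in HCA, 2.42% to 9.70% in HCC and 0% to 2.08% in livers. Without HCA 5884, HCC 6487, HCC 6240 tumor 2 and liver 6240 they were 1.01%, 3.03% and 0%, and without HCC 6642 and liver 6240 the share in livers was 0%. No other difference between tumors and livers moved by more than the SD of the tumors. Signs of those small differences changed under some settings, most often for HCC on Chr19 (7 of 18). For single arrays over 0.1 from the mean of the livers, 16 of 64 alternative values moved by more than the SD of the livers.

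Between livers of R246S and floxed mice, Chr7, Chr11 and Chr19 passed the threshold under none of the alternatives (adjusted p from 0.217 to 1). The difference on Chr7 was −0.0069 in females and with sex as a term, that on Chr11 was 0.011 without centring, and that on Chr19 ran from −0.047 to 0.0031 with 1 liver left out, above 0 without liver 6240. In females alone the exact test cannot pass the threshold. The bins called over all autosomes numbered 1 as reported, 0 with normexp, without background correction, with medians, without the most variable probes, in females and with scan day as a block. They numbered 2 with sex as a term, 4 without centring, 5 with centring on all probes, and 1 to 5 with 1 liver left out. Probe noise and 1 array per sample limit all values. The causes were not tested.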
